A study of Mus musculus with 124 samples.

Results

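Daily rhythms of RNA were compared between the cerebral cortex and the liver of undisturbed mice. The comparison takes every control library, 52 of the 124 in the series, and every gene named in both expression tables, 12194 of the 17108 named entries for cortex and 13338 for liver. Both tissues came from the same 26 mice of the 62 in the series. The controls were mice aged 11 to 12 weeks whose sleep was not disturbed. Lights were on for 12 h a day, food was always present, and no source used here gives strain, sex or genotype. The labels put the mice in 2 batches without saying what a batch is, 16 mice in batch 1 and 10 in batch 2. The time of sampling is given as zeitgeber time (ZT), the hours since lights on. There were 8 mice at ZT0, 3 at ZT3, and 5 each at ZT6, ZT12 and ZT18. The ZT0 group joins mice killed at the start and at the end of the baseline day, 4 at each. The other mice of the series were deprived of sleep and are not analysed here.

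Nearly every mammalian cell holds a clock in which the activators ARNTL and CLOCK, or NPAS2 in place of CLOCK, switch on the genes of their own repressors, the PER and CRY proteins. A second loop is formed by the REV-ERB repressors (Nr1d1, Nr1d2) and the ROR activators, which act on Arntl itself. The factors DBP, TEF and HLF and their antagonist NFIL3 pass the rhythm on to other genes. Mice are active and feed mostly in the dark. The liver clock responds strongly to feeding, whereas many rhythmic transcripts of the cortex follow waking and sleep.

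For each gene and tissue a 24 h cosine was fitted to log2 CPM, read counts scaled to a common library total. The amplitude below is the difference between the fitted peak and the fitted daily level, on the log2 scale. The peak time is the hour of the fitted peak. Errors of amplitudes and peak times are standard errors over the 26 mice. A rhythm, or a difference in rhythm between the tissues (the tissue by rhythm interaction, in amplitude, in peak time or in both), was called where limma's test gave an adjusted p under 0.05 (Benjamini-Hochberg over all genes tested). The tables were normalised separately by tissue, so amplitudes and peak times can be set side by side, and levels cannot. In tissue samples, fewer cells of a type and less RNA per cell cannot be told apart.

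The tissues matched their labels. The summed level of 8 neuronal markers was 8460 to 9550 CPM in cortex, and the 2 of them present in the liver table summed to 2.89 to 23.1. The summed level of 7 hepatocyte markers was 87500 to 134000 CPM in liver, and the 2 of them in the cortex table summed to 0.404 to 7.18. Markers of other cells moved with time in places. The 4 endothelial markers were all called rhythmic in cortex, where their sum was 125 to 147 CPM at ZT12 and 151 to 186 at the other times, and none was called in liver, with no interaction called. In cortex the 3 choroid plexus markers present summed to 8.09, 19.6 and 122 CPM in the ZT3 mice and to 2.85 to 18.6 at the other times. Their part in the results was not tested.

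With the label batch as the covariate, about as many genes were called rhythmic in one tissue as in the other. The genes called in both were fewer than those called in either one alone. In cortex 7404 of 17108 genes were called (43.3%), and in liver 6055 of 13338 (45.4%). The liver count was 5112 with an unlabelled 3-level factor of the liver values as a covariate. Without that factor the liver p-values are too small. Among the genes in both tables, 5426 were called in cortex (44.5%), 5554 in liver (45.5%) and 2663 in both. The rhythm differed between the tissues for 5270 genes (43.2%). That held for 1971 of the genes called in both tissues, for 2315 of the 2891 called in liver alone and for 750 of the 2763 called in cortex alone. A call in 1 tissue therefore came without a called difference for 576 and 2013 genes, respectively. Within batch 1 the interaction was called for 3109 genes, and within batch 2 for 2137, each with fewer mice. With the 3-level liver factor as a covariate the interaction was called for 4784 genes.

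Liver rhythms were the larger ones. Of the 5270 genes with a different rhythm, 4639 had the larger amplitude in liver (88.0%) and 631 in cortex, and over all shared genes the liver value was larger for 78.8%. Among the genes called in both tissues, the median ratio of the liver amplitude to the cortex amplitude was 2.18 (quartiles 1.47 and 3.33). The amplitude difference itself was called for 1139 of these 2663 genes (42.8%), in 1118 with the larger amplitude in liver and in 21 with the larger one in cortex. An amplitude of at least 1, a fitted 4-fold range over the day, was reached by 137 called genes in liver and by 3 in cortex. Scatter moved with amplitude. The median residual SD around the fit was 0.203 in liver and 0.0875 in cortex, and its part in the amplitudes was not tested. The median share of a gene's variance taken by the cosine was 25.9% in liver and 25.4% in cortex. With weights that let the 2 tissues differ in scatter, 5074 genes were called, 90.4% of them with the larger amplitude in liver.

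**Figure D1:**
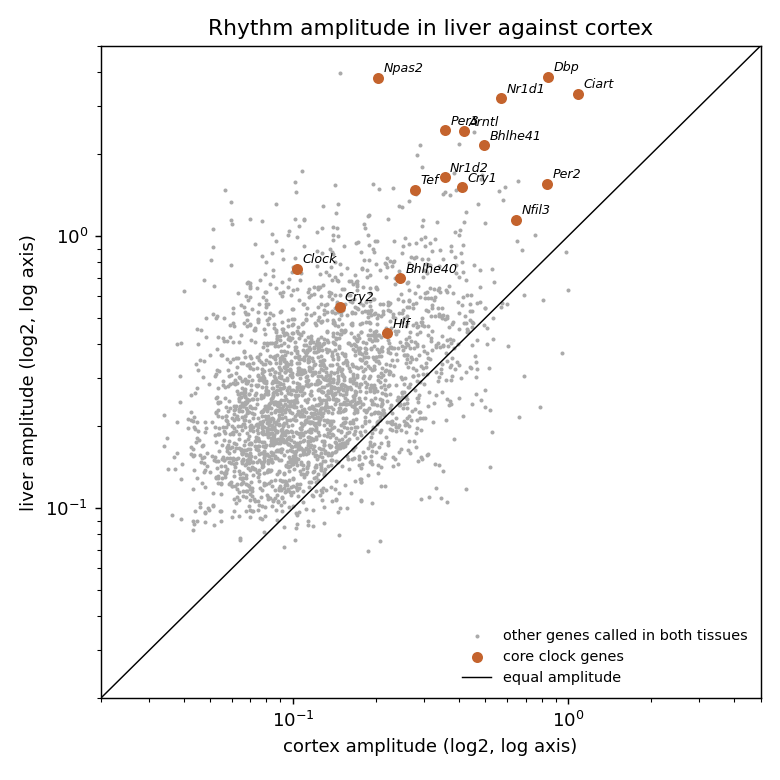
Amplitude in liver (vertical, log2, log axis) against amplitude in cortex (horizontal, log2, log axis) for the 2663 genes called rhythmic in both tissues, 1 point per gene. The line marks equal amplitude, and the 16 core clock genes (orange) all lie above it.

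The peaks of cortex transcripts fell into 2 windows and those of the liver did not. In cortex, 22.8% of the called genes peaked from ZT6 to ZT9 and 16.1% from ZT9 to ZT12, and 26.1% and 14.8% peaked from ZT18 to ZT21 and from ZT21 to ZT24. Each of the other 3 h windows held 4.17% to 6.16%. In liver no window held less than 10.6% or more than 14.4%. No mouse was sampled between ZT6 and ZT12, between ZT12 and ZT18 or after ZT18, so a fitted peak in those gaps is an interpolation. A shape other than the cosine was called for 239 genes in cortex (1.40%) and 1415 in liver (10.6%).

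For the 2663 genes rhythmic in both tissues, the peak time differed by a called amount in 1738 (65.3%). The liver peak was the earlier one in 939 of these and the later one in 799. The 2 peaks lay within 2 h of each other for 733 genes (27.5%) and over 9 h apart for 432 (16.2%). Of the genes that peaked in cortex from ZT6 to ZT12, 41.2% peaked in the same 6 h of the day in liver, and of those that peaked in cortex from ZT18 to ZT24 also 41.2% did. For cortex peaks from ZT0 to ZT6 and from ZT12 to ZT18 the shares were 33.2% and 25.7%. Over all 2663 genes, 22.4%, 29.2%, 20.1% and 28.3% peaked in liver in the successive 6 h from ZT0. The median standard error of a difference in peak time was 1.20 h.

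**Figure D2:**
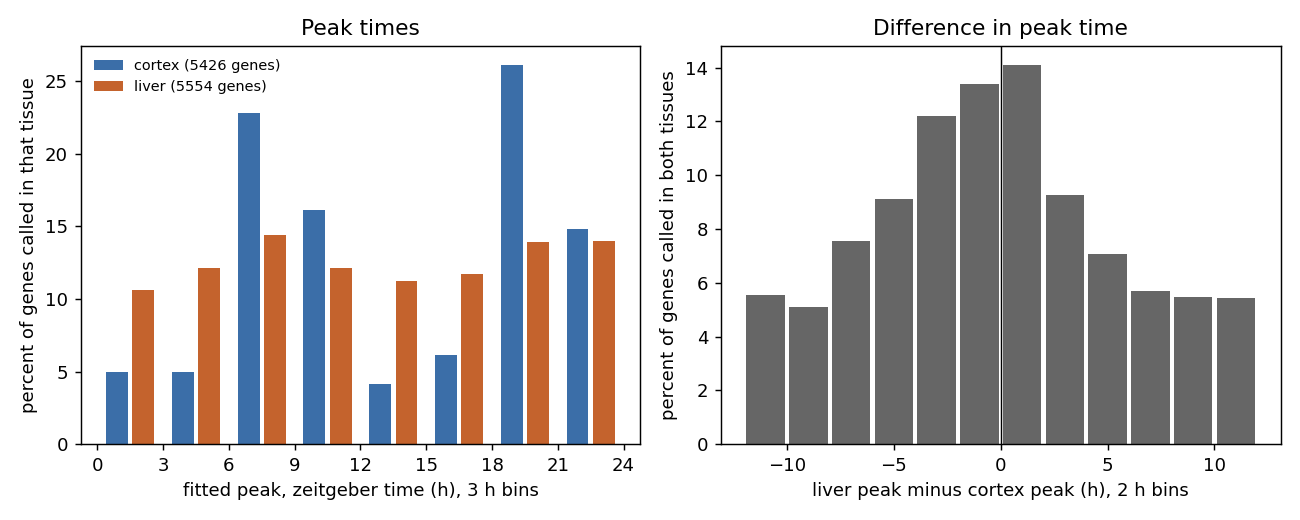
Left, percent of the genes called in a tissue whose fitted peak fell in each 3 h window of zeitgeber time, for cortex (blue, 5426 genes) and liver (orange, 5554 genes). Right, percent of the 2663 genes called in both tissues by liver peak minus cortex peak in 2 h windows. The cortex bars are high from ZT6 to ZT12 and from ZT18 to ZT24, and the differences peak around 0 without leaving any window empty.

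Core clock genes had larger amplitudes and mostly earlier peaks in liver. Of 20 genes listed, 19 were in both tables (Rorb, an ROR activator, was in the cortex table). Of these 19, 17 were rhythmic in cortex and 18 in liver, against 44.5% and 45.5% of all shared genes. The rhythm differed between the tissues for 18, against 43.2%. All of these 18 had the larger amplitude in liver, against 88.0% of all genes with a different rhythm. The median amplitude of the 19 was 0.36 in cortex and 1.56 in liver, against 0.07 and 0.16 over all shared genes. All 16 genes called in both tissues had a called amplitude difference. Their median amplitude ratio was 4.46 ± 0.496 (jackknife SE over mice), 4.27 within batch 1 and 5.21 within batch 2. Of the 16, 12 had a called difference in peak time, each with the earlier peak in liver. Over all genes called in both tissues 65.3% had a called difference, with the earlier peak in liver in 939 of 1738. The median difference over the 16 was −2.78 ± 0.356 h (jackknife SE), −2.77 h within batch 1 and −3.24 h within batch 2. For both medians, the batch values and jackknife settings take the clock genes called in both tissues in that setting, not always the same 16. In batch 2 alone 13 clock genes were called in cortex. A departure from the cosine, on which amplitudes and peak times rest, was called for 4 clock genes in cortex (Per2, Cry1, Dbp, Bhlhe40) and 7 in liver (Per3, Cry1, Cry2, Nr1d2, Dbp, Tef, Bhlhe41).

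Dbp, a transcription factor driven directly by the clock's activators, shows both differences. In cortex its log2 CPM was 4.76 to 5.27 (median 4.98) in the 8 mice at ZT0, and 5.18, 5.26 and 5.30 at ZT3. It was 6.02, 6.03, 6.07, 6.19 and 6.36 at ZT6, 6.53, 6.57, 6.63, 6.65 and 6.74 at ZT12, and 5.82, 5.86, 5.95, 5.98 and 5.99 at ZT18. Every cortex library at ZT12 thus lay above every other cortex library. In liver Dbp was −1.81 to 0.55 (median −0.48) at ZT0 and 2.38, 3.26 and 3.37 at ZT3. It was 5.89, 6.11, 6.54, 6.54 and 6.92 at ZT6, 4.54, 5.10, 5.49, 5.58 and 6.17 at ZT12, and 1.06, 1.64, 1.98, 2.25 and 2.47 at ZT18. The highest liver libraries were those of ZT6, overlapping with ZT12, and the lowest were those of ZT0, which overlapped with no other time. The fitted range from trough to peak was 3.23-fold in cortex and 208-fold in liver. Between the highest and lowest group medians it was 3.14-fold and 130.3-fold, and a departure from the cosine was called in both tissues (adjusted p 0.0328 and 1.89e-04, limma). The amplitude of Dbp was 0.85 ± 0.04 in cortex and 3.85 ± 0.28 in liver (ratio 4.55, 95% interval 3.81 to 5.44), and its peak came 2.06 ± 0.327 h earlier in liver, at ZT9.57 against ZT11.6 (adjusted p of the interaction 2.44e-11, limma).

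The activators peaked around lights on in both tissues. Arntl, which encodes the partner of CLOCK, was 5.86 to 5.99 (median 5.93) in cortex at ZT0, 5.85, 5.85 and 5.92 at ZT3, and 5.54, 5.59, 5.61, 5.62 and 5.63 at ZT6. It was 5.03, 5.06, 5.11, 5.13 and 5.16 at ZT12 and 5.38, 5.46, 5.50, 5.50 and 5.51 at ZT18. The cortex groups overlapped only between ZT0 and ZT3. In liver Arntl was 5.08 to 5.67 (median 5.54) at ZT0, 4.67, 4.84 and 4.97 at ZT3, and 1.28, 1.86, 1.94, 2.77 and 3.76 at ZT6. It was −0.26, 1.29, 1.40, 1.92 and 2.42 at ZT12 and 4.80, 4.83, 4.85, 5.09 and 5.32 at ZT18. Liver Arntl was low at ZT6 and ZT12, and those 2 times overlapped with each other but with no other time. The fitted range was 1.78-fold in cortex and 29.2-fold in liver, and the liver peak was 2.56 ± 0.310 h earlier (adjusted p 6.91e-08, limma). Clock ranged 1.15-fold in cortex and 2.87-fold in liver, with a difference in peak time of −0.60 ± 0.896 h that was not called (adjusted p 0.567). Npas2, which can replace Clock, had the largest amplitude ratio of the 16, with 0.20 ± 0.03 in cortex and 3.82 ± 0.16 in liver (adjusted p of the interaction 1.94e-22, limma). In liver it stood at 3.24 to 3.93 at ZT0, while 3 of the 5 libraries at ZT12 share the value −4.51. Values shared at the bottom of the scale may be counts of 0, and then the liver amplitude of Npas2 depends on how the authors offset such counts.

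Among the repressors, Per2 was 5.68 to 6.31 (median 5.99) in cortex at ZT0, 4.56, 4.70 and 5.06 at ZT3, and 4.61, 4.66, 4.68, 5.19 and 5.25 at ZT6. It was 5.84, 5.92, 6.01, 6.24 and 6.27 at ZT12 and 6.17, 6.17, 6.29, 6.65 and 6.69 at ZT18. In liver Per2 was 3.68 to 4.36 (median 3.90) at ZT0, 3.31, 3.89 and 3.96 at ZT3, and 4.04, 4.12, 4.84, 5.04 and 5.42 at ZT6. It was 6.30, 6.36, 6.42, 6.47 and 6.72 at ZT12 and 5.84, 6.10, 6.45, 6.62 and 6.85 at ZT18. At ZT0 Per2 was thus among its higher values in cortex and among its lower values in liver. The fitted peak came at ZT17.8 in cortex and ZT14.3 in liver, 3.56 ± 0.468 h earlier (adjusted p 2.35e-07, limma), and the amplitude ratio, 1.86, was among the smaller ones of the clock. Per3 peaked 2.07 ± 0.454 h earlier in liver. Per1 was called in liver (peak ZT12.0, amplitude 2.20 ± 0.17) and missed the threshold in cortex (adjusted p 0.0685), and the 2 batches gave unlike cortex amplitudes for it, 0.48 and 0.11. Cry1 peaked at ZT18.5 in cortex and ZT18.8 in liver with no called difference ( 0.39 ± 0.559 h, adjusted p 0.557), although its amplitude was 3.67 times as large in liver. Cry2 peaked at ZT18.2 in cortex and ZT11.6 in liver, 6.60 ± 0.862 h earlier.

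In the second loop, Nr1d1 ranged 2.21-fold in cortex with a peak at ZT9.47 and 86.7-fold in liver with a peak at ZT6.67 (difference −2.80 ± 0.331 h). Nr1d2 peaked at ZT12.1 and ZT9.03. Rora was the 1 member of the 19 without a called interaction (adjusted p 0.110). Of the output factors, Tef peaked 3.49 ± 0.377 h and Hlf 4.49 ± 0.645 h earlier in liver, and Nfil3, which opposes them, 2.76 ± 0.503 h earlier. The repressor Bhlhe41 peaked 3.31 ± 0.536 h earlier in liver. Its relative Bhlhe40 showed the widest gap, at ZT18.8 in cortex and ZT11.2 in liver (−7.61 ± 1.07 h), with −6.92 h in batch 1 and −10.7 h in batch 2. In batch 2 alone neither Bhlhe40 nor Cry2 was called rhythmic in cortex, so their peak times could not be tested there.

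**Figure D3:**
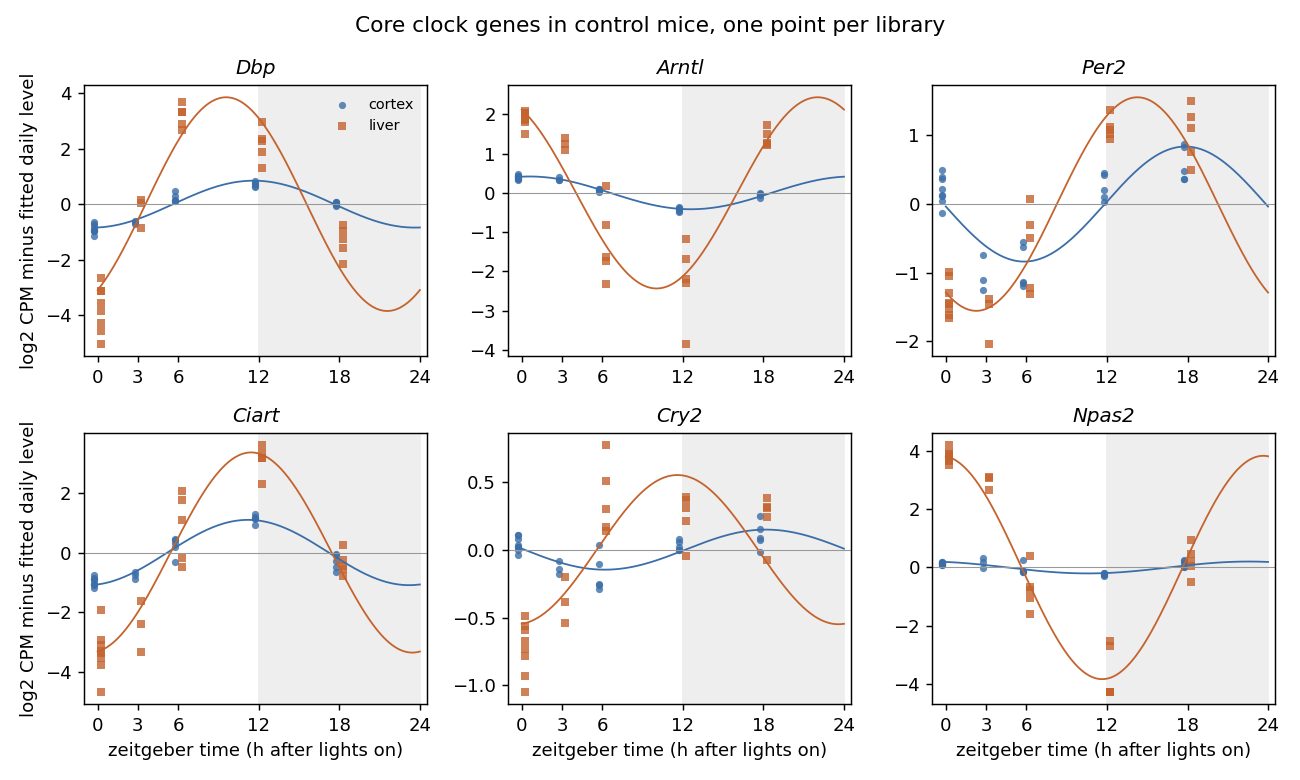
Log2 CPM minus the fitted daily level (vertical) against zeitgeber time (horizontal, h after lights on) for 6 core clock genes, 1 point per library (26 in cortex, blue circles, and 26 in liver, orange squares), with the fitted 24 h cosine as a line and the dark phase shaded. The Ciart curves peak at ZT11.2 and ZT11.4, Cry2 peaks 6.60 h earlier in liver, and the liver curves are the larger ones in all 6 panels.

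Ciart, a repressor of the activator pair, had no called difference in peak time. In cortex it was 2.86 to 3.31 (median 3.07) at ZT0, 3.16, 3.30 and 3.40 at ZT3, and 3.73, 4.25, 4.38, 4.47 and 4.49 at ZT6. It was 4.99, 5.18, 5.21, 5.24 and 5.33 at ZT12 and 3.41, 3.57, 3.77, 3.96 and 4.01 at ZT18. The 5 cortex libraries of ZT12 lay above all others. In liver Ciart was −2.75 to −0.01 (median −1.42) at ZT0, −1.43, −0.47 and 0.30 at ZT3, and 1.43, 1.71, 2.97, 3.65 and 3.94 at ZT6. It was 4.17, 5.06, 5.06, 5.22 and 5.48 at ZT12 and 1.13, 1.35, 1.44, 1.66 and 2.15 at ZT18. Here too ZT12 lay above every other time, and ZT0 overlapped with ZT3 alone. The peak came at ZT11.2 in cortex and ZT11.4 in liver (difference 0.23 ± 0.320 h, 95% interval −0.42 to 0.89 h, adjusted p 0.538), with −0.278 h in batch 1 and a called 1.23 h in batch 2. The fitted range was 4.53-fold in cortex, the widest of the clock genes there, and 102-fold in liver.

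The ARNTL and CLOCK pair binds the E-box CACGTG, DBP and its relatives bind the D-box (searched as TTATGTAA or TTACGTAA), and REV-ERB and ROR factors share an element searched as TAGGTCA. Both strands of the 250 bases before each RefSeq start site (GRCm38.p6) were searched for 17 of the 20 clock genes that have such a window. The E-box was found for 5 genes, the D-box for 1 and the ROR element for 1. Over all genes, 6.02%, 0.929% and 2.24% of 32817 single windows held a match. A clock gene counted if any of its 1 to 3 windows matched, so its counts and these shares are in different units. The sequences are shown because they belong to genes without a called difference in peak time (Ciart, Cry1) and to genes that peaked earlier in liver (Per3, Bhlhe41, Nfil3), with the motif in capitals, 5′ to 3′ on the gene's strand.
Ciart, chr3:95882252-95882359, minus strand, 3 E-boxes: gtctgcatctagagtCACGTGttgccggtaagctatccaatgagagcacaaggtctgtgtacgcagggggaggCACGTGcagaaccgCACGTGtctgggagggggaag
Cry1, chr10:85185094-85185129, minus strand, 1 E-box: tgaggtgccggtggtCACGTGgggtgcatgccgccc
Bhlhe41, chr6:145865553-145865588, minus strand, 1 E-box: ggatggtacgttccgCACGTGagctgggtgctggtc
Per3, chr4:151044801-151044885, minus strand, 2 D-boxes: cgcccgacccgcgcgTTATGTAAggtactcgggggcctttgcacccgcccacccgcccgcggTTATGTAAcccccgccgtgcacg
Nfil3, chr13:52981040-52981066, minus strand, 1 ROR element on the other strand: cgcggcgctcggaacTGACCTActaac
The other 2 genes with an E-box were Per1 and Tef. Genes with an E-box therefore include some without a called difference in peak time (Ciart, Cry1) and some with one (Bhlhe41, Tef). These matches are descriptions of the sequence, not of binding.

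Clock-controlled genes that many tissues share did not all follow the clock's order. All 6 listed were rhythmic in liver and 5 in cortex, against 45.5% and 44.5% of all shared genes. All 6 differed in rhythm, against 43.2%. Each had the larger amplitude in liver, against 88.0% of all genes with a different rhythm. Of 4 called differences in peak time, 1 had the earlier peak in liver and 3 the later. Over all genes the liver peak was the earlier one in 939 of 1738. Por, which supplies electrons to cytochrome P450 enzymes, peaked 4.75 ± 1.17 h earlier in liver. Usp2, a deubiquitinase, peaked 1.85 ± 0.401 h later in liver, at ZT12.5 against ZT10.6. Wee1, a kinase that holds back mitosis, ranged 9.66-fold in liver and missed the threshold in cortex (adjusted p 0.0701).

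Cirbp and Rbm3, RNA-binding proteins induced by mild cold, were rhythmic in both tissues with no called difference. Cirbp was 5.32 to 5.69 (median 5.55) in cortex at ZT0, 5.88, 5.91 and 5.99 at ZT3, and 6.06, 6.15, 6.22, 6.23 and 6.25 at ZT6. It was 5.95, 6.14, 6.17, 6.22 and 6.23 at ZT12 and 5.29, 5.41, 5.41, 5.43 and 5.51 at ZT18. In liver Cirbp was 3.56 to 4.33 (median 4.04) at ZT0, 4.57, 4.57 and 4.84 at ZT3, and 4.39, 4.75, 4.88, 5.02 and 5.24 at ZT6. It was 4.28, 4.30, 4.34, 4.41 and 4.75 at ZT12 and 3.74, 3.95, 4.04, 4.37 and 4.46 at ZT18. Both tissues were high at ZT6 and low at ZT18 and ZT0, without overlap in cortex and with some in liver. The amplitude ratio of Cirbp was 0.95 (95% interval 0.63 to 1.43) and the liver peak was 0.47 ± 0.674 h earlier (interaction adjusted p 0.813, limma). For Rbm3 the amplitude ratio was 1.53 (1.07 to 2.19) with an interaction at an adjusted p of 0.167, which became 0.0220 without mouse T6N3.

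Cytosolic heat shock genes, which encode chaperones for unfolded proteins, peaked in the dark phase in both tissues. Of 21 listed, 17 were rhythmic in cortex and 15 in liver, against 44.5% and 45.5% of all shared genes. Mean peaks over the called members were ZT20.5 and ZT18.7. The rhythm differed for 13, against 43.2% of all shared genes (11 within batch 1 and 10 within batch 2). All 13 had the larger amplitude in liver, against 88.0% of all genes with a different rhythm. All 6 called differences in peak time had the earlier peak in liver, against 939 of 1738 over all genes. Hspb1, a small heat shock protein, was 1.98, 2.11, 2.17, 2.35 and 2.51 in cortex at ZT18, above all other cortex libraries. In liver Hspb1 was 5.01, 5.04, 5.42, 5.51 and 5.56 at ZT18, also above all others, where the highest at another time was 3.71. Its peak times were ZT19.3 and ZT19.0 (difference −0.30 ± 0.657 h), and its amplitude ratio was 2.43 (1.63 to 3.63, interaction adjusted p 0.00296, 0.0839 within batch 2). Hsp90aa1, the inducible HSP90, ranged 4.42-fold in liver and 1.04-fold in cortex, where no rhythm was called (adjusted p 0.482).

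Endoplasmic reticulum chaperones, which fold secreted proteins, were mostly rhythmic in both tissues, with few interactions called. Of 18, 17 were rhythmic in cortex, 16 in liver and 15 in both. Over all shared genes these shares were 44.5%, 45.5% and 21.8%. The rhythm differed for 5, against 43.2% (3 within batch 1 and 2 within batch 2). An amplitude difference was called for 5, all larger in liver. A difference in peak time was called for 3, of which 1 had the earlier peak in liver. Mean peaks were ZT19.5 and ZT20.1. Sdf2l1, a cochaperone of the reticulum, had amplitudes of 0.65 ± 0.06 and 0.96 ± 0.17 (interaction adjusted p 0.0574, which several alternatives took under 0.05, such as 0.0181 with the mouse as a block). Herpud1, which acts in the removal of misfolded proteins, had a liver peak 5.36 ± 0.896 h earlier (interaction adjusted p 0.0711 within batch 2). Xbp1, a transcription factor of the unfolded protein response, had an amplitude of 0.30 ± 0.03 in cortex and 0.06 ± 0.09 in liver (interaction adjusted p 0.00890, 0.190 within batch 1).

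Outside the core clock, Fmo2, a flavin monooxygenase, was among the genes with the largest rhythms common to both tissues. In cortex it was 0.56 to 1.56 (median 0.97) at ZT0, 0.41, 0.90 and 0.95 at ZT3, and 0.38, 1.03, 1.04, 1.40 and 1.46 at ZT6. It was 2.80, 2.82, 3.01, 3.02 and 3.38 at ZT12 and 1.27, 1.48, 1.50, 1.60 and 1.89 at ZT18. In liver Fmo2 was 3.30 to 3.88 (median 3.57) at ZT0, 2.94, 3.58 and 3.88 at ZT3, and 3.33, 3.45, 3.65, 3.65 and 3.78 at ZT6. It was 4.93, 5.04, 5.17, 5.45 and 5.64 at ZT12 and 3.98, 4.08, 4.50, 4.60 and 4.66 at ZT18. All libraries at ZT12 lay above all libraries at other times in both tissues. Fmo2 ranged 3.91-fold in cortex and 3.35-fold in liver, with peaks at ZT13.0 and ZT13.8 (interaction adjusted p 0.519, limma). Itga10, an integrin chain, peaked at ZT19.8 and ZT19.7 with an amplitude ratio of 0.94 (0.58 to 1.50), and an interaction was called for it with time groups in place of the cosine (adjusted p 0.0153) and within batch 2 (0.0134). Plin4, a coat protein of lipid droplets, ranged 4.00-fold in cortex and 2.41-fold in liver with an interaction at an adjusted p of 0.0507, which several alternatives took under 0.05, such as 0.00396 with the mouse as a block. Cdkn1a, a cell cycle inhibitor, peaked 2.31 ± 0.659 h earlier in liver with an amplitude ratio of 2.59 (interaction adjusted p 0.134 within batch 2), and Cys1, a protein of the primary cilium, peaked 6.45 ± 0.635 h earlier with a ratio of 0.99.

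Genes of fat synthesis were rhythmic mainly by their liver values. Of 18 lipogenic genes, 15 were called in liver and 7 in cortex, against 45.5% and 44.5% of all shared genes. The rhythm differed for 16, against 43.2% (16 within batch 1 and 10 within batch 2). All 16 had the larger amplitude in liver, against 88.0% of all genes with a different rhythm. The median amplitude was 0.50 in liver and 0.06 in cortex. Lpin1, a phosphatidate phosphatase and coactivator of fat metabolism, was 4.88 to 5.04 in cortex at ZT0, 4.94 ± 0.06 (SD, n = 3) at ZT3, 4.89 to 5.04 at ZT6, 5.01 to 5.18 at ZT12 and 4.84 to 5.08 at ZT18. In liver Lpin1 was 4.02 to 5.40 (median 5.11) at ZT0, 5.24, 5.38 and 6.09 at ZT3, and 5.22, 6.15, 6.65, 6.81 and 7.31 at ZT6. It was 8.74, 9.55, 9.66, 9.77 and 10.51 at ZT12 and 5.80, 5.99, 6.01, 6.22 and 6.31 at ZT18. The liver at ZT12 stood clear of all other times, while the cortex groups overlapped, apart from ZT12, whose lowest library lay just above the highest of ZT3. Lpin1 ranged 21.4-fold in liver and 1.06-fold in cortex (interaction adjusted p 7.54e-12, limma). Thrsp, a lipogenic regulator, ranged 12.8-fold in liver with a peak at ZT14.5, and Elovl6, a fatty acid elongase, 4.40-fold with a peak at ZT13.8, 6.28 ± 0.721 h before its small cortex peak. Pnpla3, a lipid droplet lipase, ranged 11.1-fold in liver and 1.16-fold in cortex.

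Other genes with a large liver rhythm and no rhythm in cortex at an unadjusted p of 0.05 were diverse. Tubb2a, a tubulin, was 6.83 to 7.29 in liver at ZT0 and 3.13, 3.62, 3.73, 4.33 and 4.75 at ZT12, without overlap, and 7.41 to 7.57 and 7.31 to 7.50 in cortex at those times. It ranged 11.5-fold in liver. Alas1, which starts haem synthesis, ranged 7.08-fold with a peak at ZT12.4. Ndrg1, a stress-responsive gene, ranged 6.58-fold with a peak at ZT1.55, Fam222a 7.12-fold with a peak at ZT21.3, and Erbb4, a receptor tyrosine kinase, 7.21-fold with a peak at ZT6.82. For Lpin1, Pnpla3 and the genes named in this group the interaction kept its call when any 1 mouse was left out and in each batch alone.

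Of 14 genes of fat burning and fasting in both tables, 8 were called rhythmic in cortex, 11 in liver and 7 in both. Over all shared genes these shares were 44.5%, 45.5% and 21.8%. The rhythm differed for 12 of the 14, against 43.2% (8 within batch 1 and 4 within batch 2). Of the 7 called in both tissues, 6 had a called difference in peak time, against 65.3% over all genes. Cpt1a, which admits fatty acids to the mitochondrion, peaked at ZT8.50 in liver and ZT5.51 in cortex and ranged 2.41-fold and 1.15-fold. Pdk4, which spares glucose, ranged 8.60-fold in liver with a peak at ZT22.0. Autophagy genes, which serve the breakdown of cell parts, were called in cortex for 12 and in liver for 18 of 25. Over all shared genes the shares were 44.5% and 45.5%. The autophagy genes differed in rhythm for 19, against 43.2% of all shared genes. All 19 had the larger liver amplitude, against 88.0% of all genes with a different rhythm (11 differed within batch 1 and 10 within batch 2). Ulk1, the kinase that starts autophagy, peaked at ZT7.99 in liver and ZT18.3 in cortex, and Gabarapl1, an ATG8 protein, ranged 2.55-fold in liver with a peak at ZT5.04 and 1.01-fold in cortex.

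Ribosomal protein genes showed small liver rhythms in step. Of 76 in both tables, 69 were called in liver and 1 in cortex, against 45.5% and 44.5% of all shared genes. The rhythm differed for 67, against 43.2%. The median liver amplitude was 0.14, with a mean peak at ZT15.8, against 0.03 in cortex. Rps19, a protein of the small subunit, was 6.11 ± 0.09 (SD, n = 8) in liver at ZT0, 6.34 ± 0.21 (SD, n = 5) at ZT12 and 6.42 ± 0.14 (SD, n = 5) at ZT18, and in cortex 5.52 ± 0.08, 5.45 ± 0.09 and 5.52 ± 0.07. Rps24 and Rps4x ranged 1.19-fold and 1.20-fold in liver, with peaks at ZT16.3 and ZT15.8. The count depended on the mice: 2 liver rhythms and 2 differences were called within batch 1 and 29 and 44 within batch 2, with median liver amplitudes of 0.131 and 0.185 and mean peaks at ZT16.6 and ZT15.0. With an unlabelled 3-level factor of the liver table as a covariate, 34 liver rhythms and 44 differences were called, and without mouse T0N3 the cortex count was 6. The summed level of the hepatocyte markers also moved in liver, with medians of 96000 CPM at ZT0, 106000 at ZT3, 107000 at ZT6, 125000 at ZT12 and 119000 at ZT18. Its part in the small liver rhythms of these genes and of the respiratory chain was not tested.

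Genes of the respiratory chain and ATP synthase, the mitochondrial machinery of energy supply, resembled them. Of 77, 60 were called in liver and 15 in cortex, against 45.5% and 44.5% of all shared genes. The rhythm differed for 51, against 43.2% (22 within batch 1 and 7 within batch 2). All 51 had the larger liver amplitude, against 88.0% of all genes with a different rhythm. With time groups in place of the cosine, 39 were called in liver. The mean liver peak was ZT15.4. All 10 called differences in peak time had the earlier peak in liver, against 939 of 1738 over all genes. Ndufb10, a subunit of complex I, peaked at ZT14.7 in liver and ZT21.3 in cortex, Uqcrh of complex III at ZT16.5 and ZT23.8, and Ndufv2 of complex I at ZT15.4 in liver with no rhythm called in cortex (adjusted p 0.527). Of 27 ribosome biogenesis genes, 14 were called in cortex and 16 in liver, against 44.5% and 45.5% of all shared genes. The rhythm differed for 14 of them, against 43.2%, with 9 when the liver factor was a covariate, 23 with time groups and 4 within each batch. Of these, Nat10, an RNA acetyltransferase, ranged 1.64-fold in liver with a peak at ZT21.1, and Mybbp1a and Ncl, proteins of the nucleolus, 1.45-fold and 1.50-fold with peaks at ZT15.6 and ZT11.6.

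3 further lists had shares of differing members close to or below the 43.2% of all genes. Rhythms were called for 44.5% of all shared genes in cortex and 45.5% in liver. Proteasome subunits differed for 16 of 38 (11 within batch 1 and 4 within batch 2), with 10 rhythms in cortex and 12 in liver. In this list Psmd11, a subunit of the regulatory cap, ranged 1.48-fold in liver with a peak at ZT0.751, and Psmb10 and Psmd9 1.50-fold and 1.39-fold, both with a peak at ZT10.9. Cytosolic tRNA synthetases, which load tRNAs with amino acids, differed for 6 of 20 (3 within each batch), with 7 rhythms in cortex and 8 in liver. Tars and Cars ranged 1.96-fold and 1.50-fold in liver, with peaks at ZT22.3 and ZT2.58, and Kars, with a peak at ZT9.02 in liver and ZT21.6 in cortex, lost its call in several alternatives. SR splicing factors and CLK kinases differed for 4 of 15 (1 within batch 2), with 10 rhythms in cortex and 9 in liver. Srsf4 peaked 9.35 ± 1.13 h earlier in liver, and Srsf5 and Tra2b ranged 1.37-fold and 1.46-fold there.

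**Figure D4:**
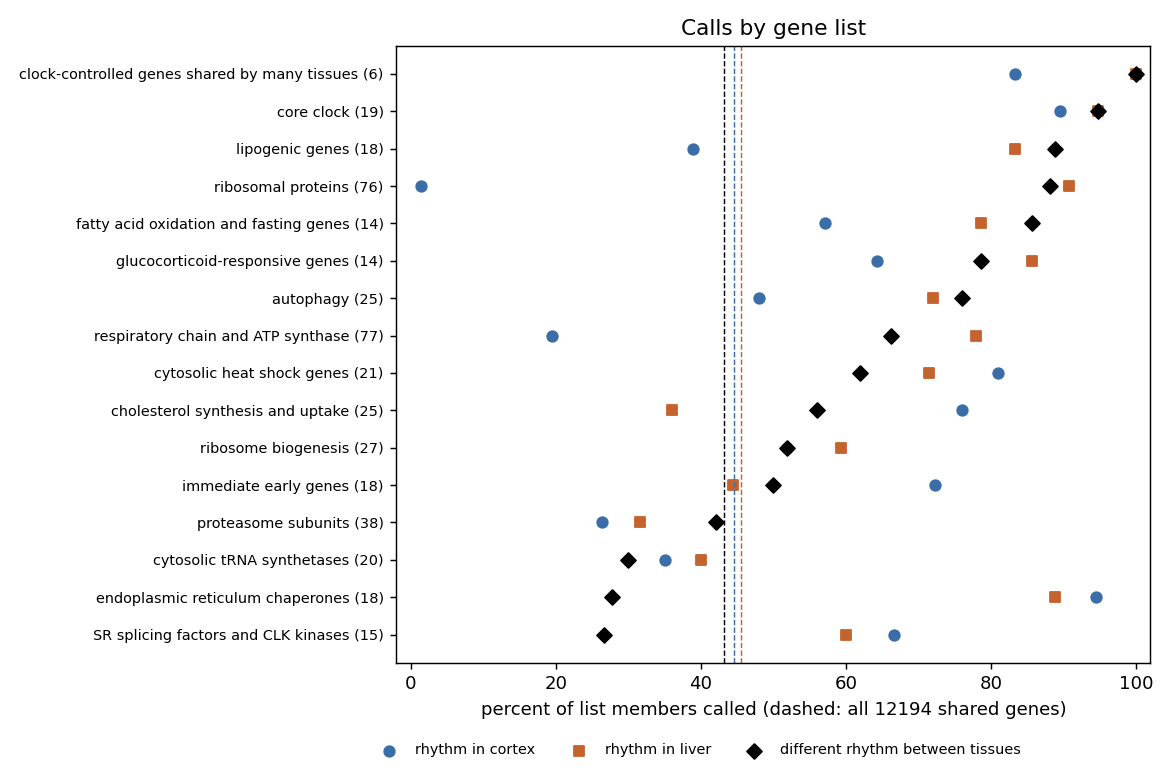
Percent of each list's members in both tables (number in brackets) called rhythmic in cortex (blue circles), rhythmic in liver (orange squares) or different in rhythm between the tissues (black diamonds, which cover a marker of equal value). Dashed lines give the same percentages over all 12194 shared genes. Ribosomal proteins lie at the far left for cortex and the far right for liver, and endoplasmic reticulum chaperones at the right for both tissues.

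Immediate early genes are switched on by neurons with activity. Of 18 in both tables, 13 were called in cortex, with a mean peak at ZT21.7, against 44.5% of all shared genes, and 8 in liver, against 45.5%, where their peaks were spread over the day. The rhythm differed for 9, against 43.2% of all shared genes (6 within batch 1, 5 within batch 2 and 5 with weights by tissue). Of the 9, 5 had the larger amplitude in liver and 4 in cortex. Another 8 listed genes, Arc and Npas4 among them, were not in both tables. Homer1, a scaffold of the synapse, had an amplitude of 0.67 ± 0.07 in cortex and 0.22 ± 0.06 in liver (ratio 0.33, 95% interval 0.18 to 0.60). Fosl2, a partner in the AP-1 factor, ranged 1.94-fold in cortex with a peak at ZT22.1 and 1.08-fold in liver (interaction adjusted p 3.85e-04). Fos, with amplitudes of 1.11 ± 0.19 in cortex and 0.58 ± 0.23 in liver, had no called difference (adjusted p 0.322). Klf10, a repressor, and Dusp4, a MAP kinase phosphatase, peaked at nearly opposite hours, at ZT23.4 and ZT20.8 in cortex and ZT9.09 and ZT7.39 in liver. Dusp6, of the same phosphatase family, ranged 2.02-fold in cortex with an interaction at an adjusted p of 0.0439, which was above 0.05 without any 1 of 13 mice (highest 0.103, without mouse T6N3), with weights by tissue (0.159), with time groups (0.0961), without ZT3 (0.0610), without the variance trend (0.0511) and within batch 2 (0.628).

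Of 25 genes of cholesterol synthesis and uptake, 19 were called in cortex and 9 in liver, with 6 in both tissues. Shares over all shared genes were 44.5% in cortex and 45.5% in liver. Mean peaks of the members called in a tissue were ZT6.60 in cortex and ZT20.1 in liver. Of the 6 called in both tissues, 4 had a called difference in peak time, 2 with the earlier and 2 with the later peak in liver, against 65.3% over all genes. The rhythm differed for 14, against 43.2% of all shared genes (7 within batch 1, 9 within batch 2). Of the 14, 12 had the larger amplitude in liver. With time groups in place of the cosine, 17 were called in liver. Hmgcs1, an early enzyme of the pathway, peaked at ZT6.02 in cortex and ZT23.7 in liver, with amplitudes of 0.22 ± 0.04 and 0.79 ± 0.13.

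Some genes had the larger rhythm in cortex and none in liver at an unadjusted p of 0.05. Tm6sf2, a membrane protein of lipid export, was 0.96 to 2.06 (median 1.71) in cortex at ZT0, 0.62, 0.64 and 1.08 at ZT3, and −0.22, −0.09, 0.11, 0.41 and 0.68 at ZT6. It was 0.60, 0.71, 0.93, 1.08 and 1.21 at ZT12 and 1.05, 1.18, 1.52, 1.76 and 1.88 at ZT18. In liver Tm6sf2 was 4.20 to 4.67 at ZT0, 4.34 to 4.50 at ZT3, 4.27 to 5.07 at ZT6, 3.88 to 4.88 at ZT12 and 4.54 to 4.81 at ZT18. In cortex every library of ZT6 lay below those of ZT0 and ZT18, while the liver groups overlapped, apart from ZT3 and ZT18. The amplitudes of Tm6sf2 were 0.78 ± 0.11 in cortex and 0.14 ± 0.07 in liver (interaction adjusted p 6.11e-04, limma, and 0.512 within batch 2). Dok3, an adaptor of immune receptors, had 0.70 ± 0.05 and 0.18 ± 0.09. Galnt15, a glycosyltransferase, had 0.71 ± 0.08 and 0.06 ± 0.10 (0.223 within batch 2), and Prr5, a subunit of the mTORC2 kinase complex, 0.48 ± 0.05 and 0.17 ± 0.07. Sgk1, a kinase induced by glucocorticoids, had 0.48 ± 0.05 and 0.13 ± 0.14 (0.173 within batch 1). Of 14 glucocorticoid-responsive genes in both tables, 9 were called in cortex and 12 in liver, against 44.5% and 45.5% of all shared genes. The rhythm differed for 11 of the 14, against 43.2% (8 within batch 1 and 6 within batch 2). Of the 11, 10 had the larger amplitude in liver, against 88.0% of all genes with a different rhythm. Fkbp5, a cochaperone of the receptor, peaked at ZT12.9 in cortex and ZT12.5 in liver (difference −0.43 ± 0.906 h), with a 5.10 times larger amplitude in liver. Klf9, a transcription factor, peaked at ZT13.2 in cortex and ZT6.64 in liver, and Ddit4, an inhibitor of mTOR, at ZT19.0 in liver with no rhythm called in cortex (adjusted p 0.542).

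Some genes ran in antiphase. Palmd, a palmdelphin, was 4.36 to 4.54 (median 4.44) in cortex at ZT0, 4.00, 4.10 and 4.12 at ZT3, and 3.77, 3.83, 3.97, 4.00 and 4.16 at ZT6. It was 3.88, 4.02, 4.05, 4.23 and 4.23 at ZT12 and 4.37, 4.43, 4.49, 4.54 and 4.64 at ZT18. In liver Palmd was 4.57 to 5.47 (median 5.18) at ZT0, 5.34, 5.36 and 5.41 at ZT3, and 5.54, 5.57, 5.78, 5.91 and 6.03 at ZT6. It was 4.89, 5.32, 5.55, 5.66 and 5.78 at ZT12 and 4.68, 4.85, 4.95, 5.08 and 5.25 at ZT18. The cortex was high at ZT18 and ZT0 and low at ZT6, and the liver was high at ZT6 and low at ZT18, in both cases without overlap between ZT6 and ZT18. The peaks of Palmd lay at ZT20.0 and ZT7.70, 11.7 ± 0.604 h apart (adjusted p 1.59e-14, limma), and the amplitude ratio was 1.20 (0.83 to 1.73).

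Arl4a, a small GTPase, ran the other way round. In cortex it was 4.98 to 5.37 (median 5.21) at ZT0, 5.33, 5.38 and 5.41 at ZT3, and 5.51, 5.57, 5.68, 5.70 and 5.73 at ZT6. It was 5.63, 5.64, 5.67, 5.69 and 5.73 at ZT12 and 5.22, 5.22, 5.25, 5.30 and 5.31 at ZT18. In liver Arl4a was 4.96 to 5.46 (median 5.14) at ZT0, 4.73, 4.92 and 5.01 at ZT3, and 3.97, 4.11, 4.36, 4.38 and 5.12 at ZT6. It was 4.04, 4.26, 4.40, 4.56 and 4.60 at ZT12 and 4.76, 4.84, 4.92, 5.02 and 5.16 at ZT18. ZT12 was thus above ZT0 and ZT18 in every cortex library and below them in every liver library, with peaks at ZT9.45 and ZT21.8 (11.7 ± 0.603 h apart) and a larger amplitude in liver (ratio 1.66, 95% interval 1.18 to 2.33, adjusted p 0.0357, limma). Ccnd1, a cyclin that opens the cell cycle, peaked at ZT21.5 in cortex and ZT10.3 in liver (difference −11.2 ± 0.716 h), and Gadd45a, a stress and growth arrest gene, at ZT22.6 and ZT10.9 (−11.7 ± 1.07 h). Synj2, a phosphoinositide phosphatase, Spata2l, Lipg, an endothelial lipase, and Adamtsl4, a protein of the extracellular matrix, completed the 8 largest differences, 11.1 to 11.6 h. These 8 were ranked among genes with an amplitude of at least 0.25 and a mean log2 CPM of at least 1 in both tissues. Lipg alone among the 8 had an amplitude ratio over 2 (3.35, 95% interval 1.96 to 5.70). In batch 2 alone 5 of the 8 (Gadd45a, Synj2, Spata2l, Ccnd1 and Adamtsl4) had no rhythm call in at least 1 tissue and so no test of peak time. The 8 were picked by their difference over the mice of both batches, so neither batch is a separate check of them.

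**Figure D5:**
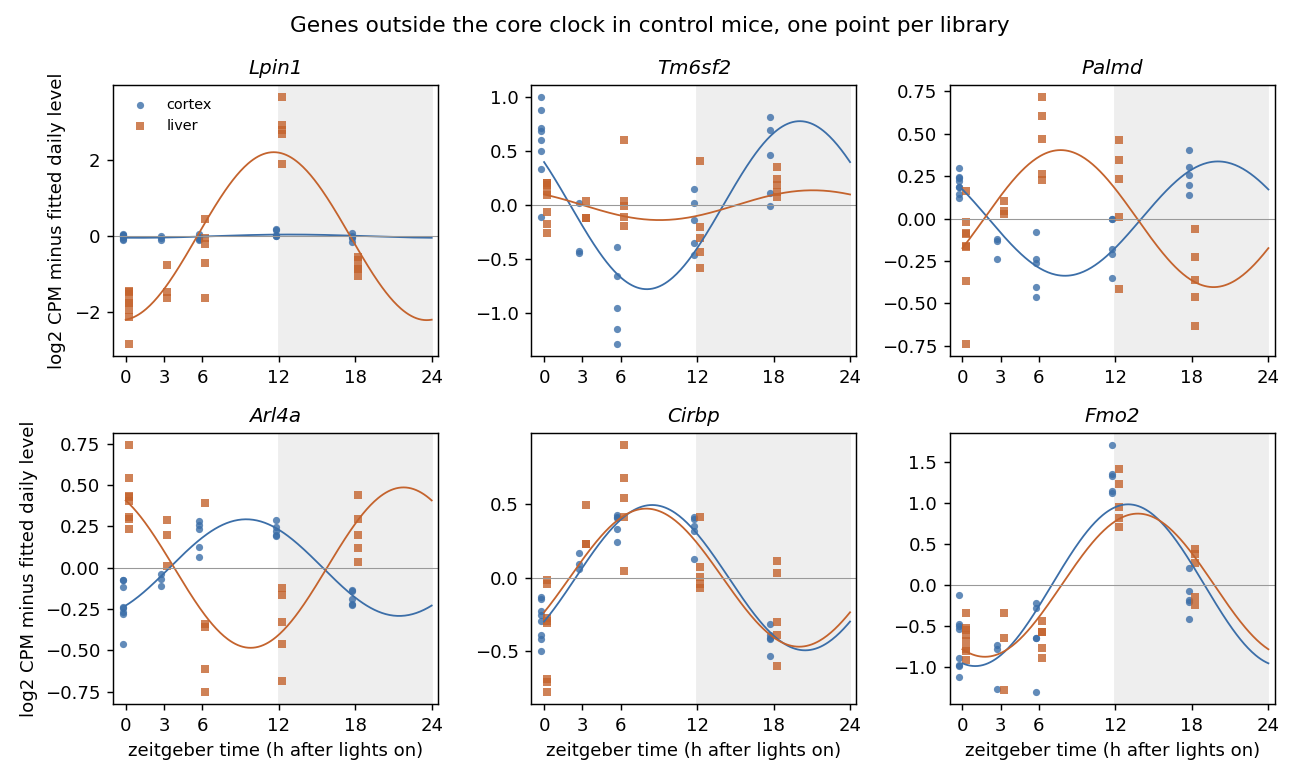
Log2 CPM minus the fitted daily level (vertical) against zeitgeber time (horizontal, h after lights on) for 6 genes outside the core clock, 1 point per library (26 in cortex, blue circles, and 26 in liver, orange squares), with fitted 24 h cosines and the dark phase shaded. Lpin1 moves in liver and Tm6sf2 in cortex, the Palmd and Arl4a curves oppose each other, and those of Cirbp and Fmo2 peak within 1 h of each other.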

How the data were processed

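The authors deposited 1 table of log2 CPM per tissue. The submitters' processing notes name fastp, STAR 2.7.0e, edgeR and the build GRCm38 (mm10), without roles or settings. Per the labels' protocols, stranded libraries of polyadenylated RNA were sequenced as single reads. The protocol text describes liver, the cortex libraries are labelled as a re-analysis, and no source used here gives their preparation. Counts and depth per library are unknown, so no counting error can be given, and low values are less certain. Columns without a sample numbered 0. Entries without a gene name held 0.0624% of the CPM in cortex and 0.0337% in liver and were left out, and 8 cortex symbols stood on several entries. No source used here says how reads of near-identical or overlapping genes were counted, so ribosomal protein genes and other families are uncertain.

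The values had been adjusted before deposit: 1 dimension is missing from the cortex table, that of the label batch, and 2 from the liver table, those of an unlabelled 3-level factor (19, 5 and 2 of the control mice, with all mice of ZT12 and ZT18 in the largest level). Liver p-values without that factor are too small. The label batch (1 or 2) was a covariate in every main fit, and ZT3 held batch 1 alone. Where the 3-level liver factor was a covariate, it took the place of the label batch for the liver values.

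Log2 values were fitted as deposited, with no pseudocount or filter, in limma 3.58.1 (R 4.3.3, eBayes with a mean trend, F test of the 24 h cosine and sine terms with 22 residual degrees of freedom). The tissue by rhythm interaction was fitted over both tissues with 44. Amplitude and peak time differences were tested for genes called in both tissues, with errors by the delta method. The interaction fit was tested on simulated data. The animal codes in the labels pair cortex and liver of 1 mouse. Deviations from the group means correlated between the tissues of a mouse by −0.065 to 0.144 (median 0.0479) over 12194 genes, so the block was used as an alternative.

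Genes named are all core clock genes, the 8 largest liver and the 8 largest cortex amplitudes among interaction calls with an unadjusted p above 0.05 in the other tissue (mean log2 CPM of at least 1 in both tissues, unnamed gene models left out), the 8 largest peak differences (amplitude of at least 0.25 in both tissues), the 8 largest shared rhythms outside the core clock and 3 members of each list by interaction p. Some genes that these rules name are not reported here. Fos, Arc and Npas4 were added after their values were seen. The genes, lists and tests were chosen with earlier results of these data known. Coordinates come from RefSeq windows on GRCm38.p6. Nothing in the labels says whether mice shared a cage or litter.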

Additional observations from a re-analysis of the deposited data

Results flagged for a closer look

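The tissue by rhythm interaction tests a difference between the 2 tissues directly, and it was called for 5270 genes. The share over all shared genes was 43.2%. By list, the interaction was called for 18 of 19 core clock genes, 6 of 6 shared clock-controlled genes and 9 of 18 immediate early genes. The counts were 13 of 21 heat shock genes, 11 of 14 glucocorticoid-responsive genes, 14 of 25 cholesterol genes and 16 of 18 lipogenic genes. Further counts were 12 of 14 fatty acid oxidation and fasting genes, 14 of 27 ribosome biogenesis genes and 19 of 25 autophagy genes. Of ribosomal proteins 67 of 76 were called, and of respiratory chain genes 51 of 77. Lists below the share of all genes were proteasome subunits (16 of 38) and tRNA synthetases (6 of 20). So were endoplasmic reticulum chaperones (5 of 18) and SR splicing factors and CLK kinases (4 of 15). Differences in peak time (liver minus cortex) were ranked among genes with an interaction call and rhythm calls in both tissues, gene models left out. An amplitude of at least 0.25 and a mean log2 CPM of at least 1 were required in both tissues. The largest were Palmd at 11.7 h, Arl4a at −11.7 h, Gadd45a at −11.7 h, Lipg at 11.6 h, Synj2 at −11.4 h, Spata2l at 11.4 h, Ccnd1 at −11.2 h and Adamtsl4 at 11.1 h.

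A single library stood far from the rest of its group in 5 of the 152 groups of 4 to 10 libraries examined for the genes plotted or listed by library, and chance gives about 1 in 20. These were Arntl in liver at ZT0 (5.08), Cirbp in liver at ZT12 (4.75), Npas2 in cortex at ZT6 (6.04), Per1 in liver at ZT12 (5.14) and Tm6sf2 in liver at ZT6 (5.07). The Npas2 and Tm6sf2 values came from the same mouse, T6N3. Without it the liver peak of Npas2, 1.07 h later than in cortex and not called, was 1.43 h later and called (adjusted p 0.0110).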

How the results depend on the processing

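Depth cannot be read from log2 CPM values, and no mouse was sampled between ZT6 and ZT12, between ZT12 and ZT18 or after ZT18, where the fit is unchecked. Leaving out 1 mouse at a time (26 settings) gave 6786 to 7559 rhythms in cortex, 5644 to 6234 in liver, 4876 to 5502 interactions, 995 to 1214 amplitude differences and 1520 to 1843 differences in peak time. Over the same settings the median amplitude ratio was 2.13 to 2.24, the share of peaks within 2 h 26.8% to 29.5%, the share over 9 h apart 15.2% to 17.6%, the share of interactions with the larger liver amplitude 87.4% to 89.2%, and the core clock medians were 4.29 to 4.65 and −2.92 to −2.65 h. With the mouse as a block (paired cortex and liver), 5113 interactions were called, 87.9% of them larger in liver. The block brought Plin4 (adjusted p 0.00396) and Sdf2l1 (0.0181) past the threshold and changed no other of the 86 gene calls run with it, while peak time differences were not run with the block or with weights by tissue.

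Batch 1 alone gave 3537 rhythms in liver, 3109 interactions, 528 amplitude and 707 peak time differences, with 32.5% of peaks within 2 h and 13.3% over 9 h apart. Batch 2 alone, added after seeing the data, gave 1920 rhythms in cortex, 2435 in liver, 2137 interactions, 195 amplitude and 236 peak time differences. Its median amplitude ratio was 2.40, with 93.3% of interactions larger in liver, and its core clock medians were 5.21 and −3.24 h. Both use fewer mice. The 3-level liver factor moved the median amplitude ratio to 2.35, with 5112 rhythms in liver, 4784 interactions and 1453 differences in peak time. On log2(CPM + 1) the core clock ratio was 3.74, since adding 1 shrinks low values. Weights by tissue gave 90.4% of interactions larger in liver. The 5 counts stayed within 1.5 times under the alternatives other than either batch alone. Of 111 results for single genes, none that was called reversed, where a peak time difference that crossed 12 h was not counted as a reversal. Results without a call could not be counted as reversed. The uncalled difference in peak time of Ciart was 0.232 h over all mice and −0.278 h within batch 1. That of Clock was −0.603 h and, within batch 2, 0.0548 h. Of the 111, 101 kept their side of the threshold under every alternative run for them other than batch 2 alone. With batch 2 alone 22 of the 111 changed. The departures from a cosine were computed once.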
